A study of Danio rerio with 6 samples.

Results

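The genes described here are per2, cry2, cry3a, nr1d2b and nfil3-5, components of the circadian clock. They were taken by name: a probe set counts when 1 of 3 tables of fold changes deposited by the authors assigns it to 1 of these symbols, as written or through its gene identifier. They have 8 probe sets and are 5 of 2137 genes named in the tables. Names exist only for probe sets that differ at least 2-fold in a deposited table, so membership already depends on these arrays, and the number of members that changed is a description and not independent evidence. Names have shifted since the tables were written: the gene now called cry2 stands there as cry3, cry3a as a locus similar to cryptochrome 2a, nr1d2b as reverbb2 and nfil3-5 as wu:fk63e10.

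The study used whole zebrafish embryos 72 h after fertilization, on 6 Affymetrix arrays in 3 groups of 2. ERbeta2 MO embryos had received, by the 4-cell stage, 50 uM of a morpholino, an antisense oligonucleotide, directed at the estrogen receptor ERbeta2, whose own transcript was not analysed here. coMO embryos had received 50 uM of a control morpholino, and uninjected embryos were left without injection. Per the labels' protocol eggs came from several aquaria and were pooled, no strain is named, and the arrays are titled biological replicates without saying that spawnings differed. The p-values therefore reflect only how far these samples differ among themselves, which may be technical. The series title names the lateral line's sense organs, the neuromasts, as the subject. Neither the lighting nor the hour of collection, both of which bear on clock transcripts, is given in the sources used here.

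The vertebrate clock is a loop in which a CLOCK and BMAL pair switches on genes whose products then switch that pair off. PER and CRY proteins are among those repressors, though the CRY name alone does not show that activity for each family member. A second loop sets the REV-ERB nuclear receptors (NR1D genes) as repressors against the ROR receptors as activators, and another sets NFIL3 as repressor against the TEF, DBP and HLF factors as activators on D-box elements. In zebrafish most tissues hold a clock that light can set directly, and per2 is among the genes that light induces.

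Compared with either control, ERbeta2 MO embryos had lower signals for per2, cry3a and nr1d2b and higher signals for nfil3-5 and cry2, under the deposited scaling; scaled on the poly-A spike RNAs, only 1 of the 5 lower probe sets, of nr1d2b, still passed against coMO and cry3a stood slightly above coMO without passing. The largest fall was that of nr1d2b, to 0.132 of the coMO signal on 1 probe set, where the ERbeta2 MO signals were dim, and 0.40 on the other. The larger rise was that of nfil3-5, to 2.22 times the coMO signal. Of 7 clock probe sets that passed the filter on low signals, 5 were lower and 2 higher against coMO, and the counts were the same against uninjected embryos (limma, Benjamini-Hochberg adjusted p under 0.05). Against coMO 56.2% of all 9302 probe sets tested passed (26.8% lower, 29.5% higher), and 56.9% against uninjected embryos (26.5% lower, 30.4% higher). Among tested probe sets that stand in a deposited table the shares were 96.6% and 97.2%, so 7 of 7 lies near the share among listed probe sets. Of these listed probe sets 45.9% were lower and 50.8% higher against coMO, with 45.6% and 51.6% against uninjected embryos. The ERbeta2 MO arrays are shared by both comparisons. On all 8 member probe sets the ERbeta2 MO arrays overlapped neither control group, as 78.7% of all probe sets tested did not overlap coMO and 78.9% not uninjected embryos. The median log2 difference of the 7 was -1.10 against coMO and -1.17 against uninjected embryos, beside 0.05 for all probe sets in both comparisons. The 7 come from tables selected for differences of at least 2-fold, all probe sets do not, so these medians are not a like comparison. per2 and nr1d2b also enter the median with 2 probe sets each. In whole embryos, fewer cells of a type and less RNA per cell cannot be told apart.

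**Figure D1:**
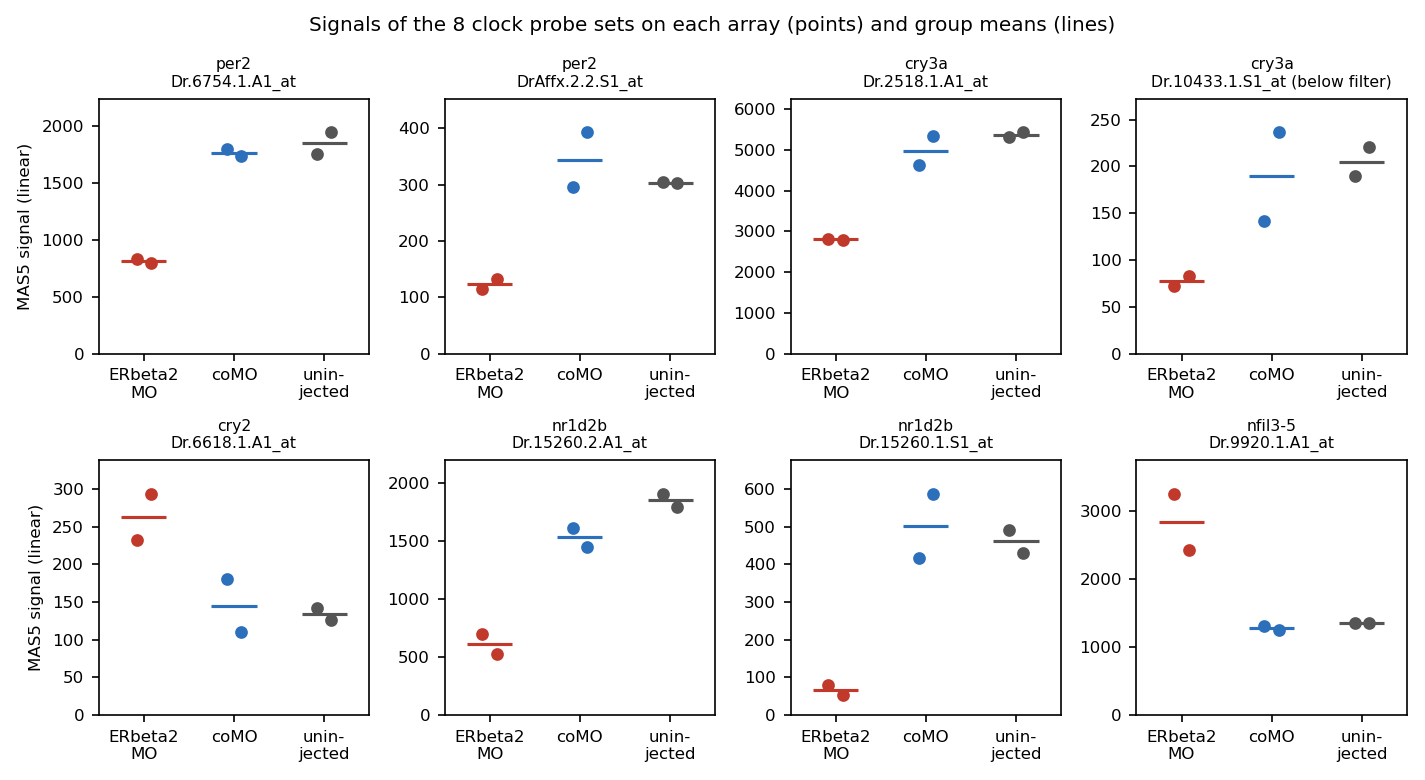
Linear MAS5 signal of each of the 8 clock probe sets on every array (points) with the group mean (line), in ERbeta2 MO, coMO and uninjected embryos, each panel with its own axis from 0. In all 8 panels both ERbeta2 MO arrays lie outside the range of the 4 control arrays, above it for cry2 and nfil3-5 and below it for the rest.

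The array carries 2 probe sets for per2, the light-responsive PER repressor. On the brighter, Dr.6754.1.A1_at, the signals were 830.1 and 796 in ERbeta2 MO, 1797 and 1734 in coMO and 1749.8 and 1945 in uninjected embryos. The control arrays lay close together, and both ERbeta2 MO arrays stood below all of them. The means of the 3 groups were 813 ± 24.2, 1765 ± 44.4 and 1848 ± 138 (SD, n = 2 each). The log2 difference from coMO was -1.10 (95% interval -1.38 to -0.83, limma adjusted p = 4.73e-07) and that from uninjected embryos -1.17 (-1.44 to -0.89, limma adjusted p = 2.06e-07). The dimmer per2 probe set, DrAffx.2.2.S1_at, read 115 and 133 in ERbeta2 MO, 296 and 394 in coMO and 305 and 303 in uninjected embryos. Its log2 differences were -1.35 (-1.75 to -0.95) and -1.19 (-1.59 to -0.79). The intervals of the per2 probe sets overlapped in each comparison.

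The 2 cryptochromes moved in opposite directions. Cryptochromes descend from light-dependent DNA repair enzymes, and the zebrafish has more of them than mammals do; that now named cry3a was described in fish cells as a repressor of CLOCK and BMAL under its older name, cry2a. The bright cry3a probe set Dr.2518.1.A1_at read 2819 and 2794 in ERbeta2 MO, 4639 and 5337 in coMO and 5322 and 5442 in uninjected embryos. Its mean signal lay at percentile 97.2 of all probe sets, its ERbeta2 MO arrays were nearly equal and lay below all 4 control arrays, while coMO and uninjected arrays overlapped. It fell by 0.82 on the log2 scale from coMO (95% interval -1.07 to -0.57, limma adjusted p = 7.33e-06) and by 0.94 from uninjected embryos (-1.19 to -0.68). The second cry3a probe set, Dr.10433.1.S1_at, lay just below the filter and enters no count. It read 71.9 and 82.5 in ERbeta2 MO, 142 and 237 in coMO and 189 and 220.4 in uninjected embryos, and in a fit with no filter its log2 differences were -1.10 and -1.24.

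Whether the cry2 product is a repressor of CLOCK and BMAL was not examined here. The single cry2 probe set, Dr.6618.1.A1_at, was dim. It read 232 and 294 in ERbeta2 MO, 180.1 and 110.0 in coMO and 143 and 126 in uninjected embryos. Both ERbeta2 MO arrays were the highest, but the lower of them exceeded the higher coMO array by less than the 2 coMO arrays differed from each other. The log2 difference was 0.82 from coMO (95% interval 0.35 to 1.29, limma adjusted p = 0.00431) and 0.89 from uninjected embryos (0.41 to 1.36, limma adjusted p = 0.00235). Single arrays decided this call. Against coMO it ended without the second ERbeta2 MO array (log2 0.66, limma adjusted p = 0.0784) and without the second coMO array (0.50, limma adjusted p = 0.0997), and against uninjected embryos without the second ERbeta2 MO array (0.73, limma adjusted p = 0.0528).

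The REV-ERB gene nr1d2b, a repressor of the second loop, showed the largest difference of the 5 genes. Its probe set Dr.15260.1.S1_at read 80.3 and 52.6 in ERbeta2 MO, 416 and 588 in coMO and 492 and 431 in uninjected embryos. Both ERbeta2 MO arrays lay far below the lowest control array. Whether these dim ERbeta2 MO signals exceed background was not tested, so the size of the fall on this probe set is uncertain. The log2 difference was -2.65 from coMO (95% interval -3.09 to -2.22, limma adjusted p = 8.05e-10) and -2.55 from uninjected embryos (-2.99 to -2.12, limma adjusted p = 1.41e-09). Of all probe sets tested, 1.51% had a lower value against coMO and 1.67% against uninjected embryos. The brighter probe set of the gene, Dr.15260.2.A1_at, read 696 and 525 in ERbeta2 MO, 1609 and 1447 in coMO and 1905 and 1794 in uninjected embryos. It fell less, by 1.31 on the log2 scale from coMO (-1.62 to -1.0) and by 1.59 from uninjected embryos (-1.89 to -1.28). The intervals of the 2 nr1d2b probe sets did not overlap in either comparison, so they disagree on the size and share the direction; their difference was not tested.

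For nfil3-5, 1 of several zebrafish NFIL3 genes, named for a bZIP repressor, the change ran the other way. Dr.9920.1.A1_at read 3249.5 and 2417 in ERbeta2 MO, 1302 and 1254 in coMO and 1344 and 1344 in uninjected embryos. The 4 control arrays lay within a narrow range, and the ERbeta2 MO arrays differed from each other by more than that range while both lay far above it. The means were 2833 ± 589, 1278 ± 33.8 and 1344 ± 0.283 (SD, n = 2 each). The log2 difference was 1.12 from coMO (95% interval 0.83 to 1.42, limma adjusted p = 1.06e-06) and 1.05 from uninjected embryos (0.75 to 1.35, limma adjusted p = 2.41e-06).

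**Figure D2:**
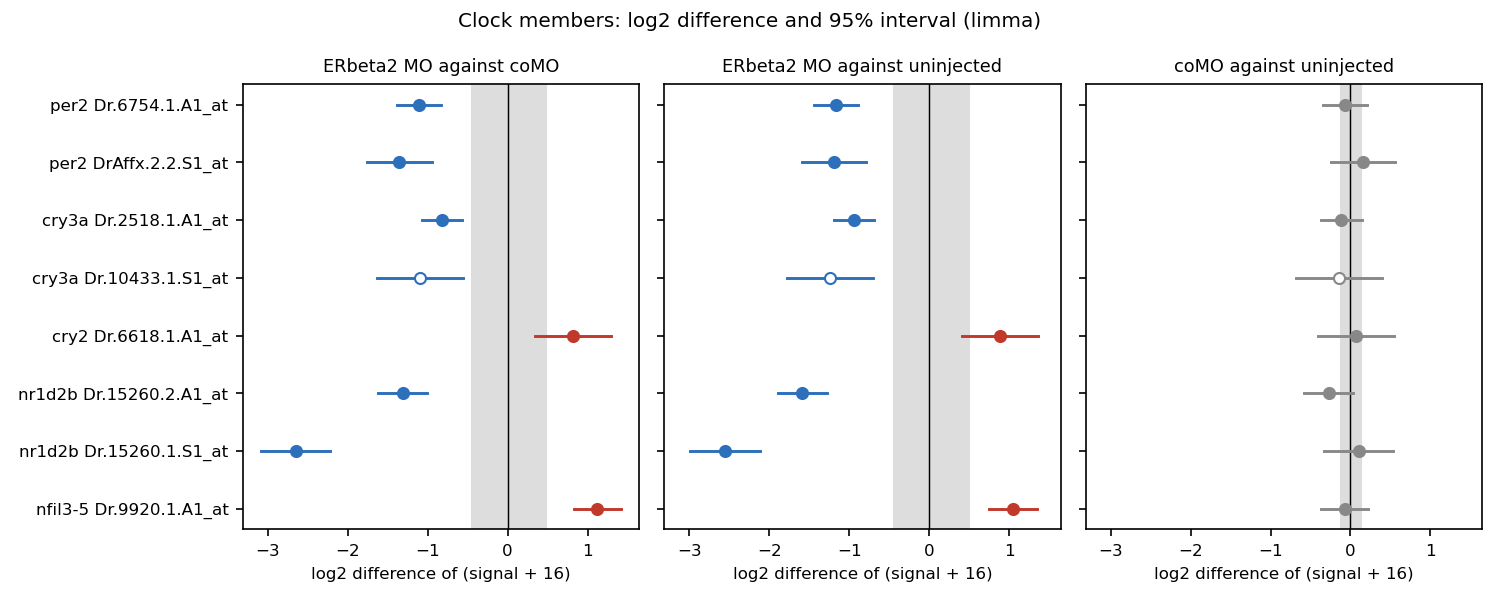
Log2 difference of (signal + 16) with its 95% interval from limma for the 8 clock probe sets in 3 comparisons; red is higher, blue lower and grey not past an adjusted p of 0.05, open points come from a fit with no filter, and the grey band spans the middle 50% of all probe sets tested. The ERbeta2 MO panels repeat the same 2 rises and the same falls, and every interval of the coMO panel crosses 0.

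The control morpholino alone left no member past the threshold. Of the 7 tested, 0 passed between coMO and uninjected embryos (limma), 0 had an unadjusted p below 0.05, and 0.505% of all probe sets passed. The log2 differences ran from -0.27 on nr1d2b Dr.15260.2.A1_at to 0.16 on per2 DrAffx.2.2.S1_at. The interval of that nr1d2b probe set ran from -0.58 to 0.03, so falls within it remain compatible with these 2 arrays a group. For nfil3-5 the interval was -0.37 to 0.22, for per2 Dr.6754.1.A1_at -0.34 to 0.21 and for cry2, the widest among those tested, -0.41 to 0.54. The 2 groups did not overlap on 2 of the 7 probe sets, nr1d2b Dr.15260.2.A1_at and nfil3-5, both lower in coMO. Such separation was common, 34.3% of all probe sets tested.

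Clock genes beyond the 5 were read from a wider list of 60 current zebrafish symbols, of which the deposited tables name 14 genes, 9 of them besides the members; the other symbols were not analysed here. Apart from the members, 7 genes with 1 probe set each passed the filter, and 6 of them fell and 1 rose against both controls. Their median log2 difference was -1.21 against coMO and -1.12 against uninjected embryos. The same limit of naming applies to them, and the cry-dash probe set among them passed the filter only through the control arrays. The shares of all probe sets called are those given above for the members.

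Among the repressors, bhlhe40, the DEC factor that in mammals competes for the E-box elements of CLOCK and BMAL, read 1499 and 1312 in ERbeta2 MO, 2826 and 2925 in coMO and 3286 and 3583 in uninjected embryos. It fell by 1.03 on the log2 scale from coMO and by 1.28 from uninjected embryos (limma adjusted p = 7.53e-07 and 3e-08). The cryptochrome cry1a, which light induces in zebrafish cells, fell by 1.27 and 1.08, from 607 ± 39.2 and 531 ± 40.1 to 242 ± 11.4 (SD, n = 2 each). The fall of cry1a and cry3a with the rise of cry2 left the named cryptochromes split. A DASH-type cryptochrome, cry-dash, of a family with DNA repair activity, fell by 1.16 and 1.12 on its tested probe set, Dr.18310.2.A1_at. Its other probe set, Dr.18310.1.S1_at, lay below the filter. In a fit with no filter its log2 differences were -1.35 from coMO and -0.77 from uninjected embryos. The 2 control groups did not overlap on it (log2 0.58 for coMO against uninjected, limma adjusted p = 0.652).

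In the nuclear receptor loop rorab, a gene of the opposing ROR family, was lower as well, at 446 ± 13.0 in ERbeta2 MO against 1070.1 ± 2.57 in coMO and 951 ± 148 in uninjected embryos (SD, n = 2 each), a log2 difference of -1.23 and -1.06. Tested genes of both receptor families of this loop were thus lower. nr1d2a, the paralog of nr1d2b, lay below the filter and outside the rule for naming, and is given because of its values. It read 40.1 and 37.7 in ERbeta2 MO, 170.03 and 179.7 in coMO and 187 and 87.7 in uninjected embryos, and the log2 difference from coMO in a fit with no filter was -1.80 (95% interval -2.44 to -1.15).

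In the D-box loop tefa, an activator that is light-induced in zebrafish, fell by 1.49 on the log2 scale from coMO and by 1.39 from uninjected embryos, to 153 ± 2.36 from 458 ± 38.4 and 427 ± 45.3 (SD, n = 2 each). nfil3-6, a second NFIL3 gene, fell by 1.21 and 1.36, opposite to nfil3-5. The replication fork protein gene tipin, whose partner is the TIMELESS protein, rose by 0.85 against coMO and by 0.62 against uninjected embryos (limma adjusted p = 0.000402 and 0.00611). The second of these calls ended without the first ERbeta2 MO array (log2 0.50, limma adjusted p = 0.0967).

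The 1 named gene of the activating limb, bmal2, was higher. Its probe set Dr.23040.1.A1_at was below the filter on mean signal, outside the rule for naming and picked for its values. It read 184 and 241 in ERbeta2 MO, 37.5 and 26.8 in coMO and 39.7 and 25.4 in uninjected embryos. The control signals are among the dimmest of the named clock probe sets, and whether they exceed background was not tested. No ratio of mean signals is therefore given here, and the log2 size below depends on the added 16. The authors' deposited tables give 3.301 over coMO and 3.456 over uninjected embryos. The folds of signal + 16 in a fit with no filter were larger, 4.74 and 4.72, and the reason was not tested. The log2(signal + 16) difference from coMO was 2.25 in a fit with no filter (95% interval 1.61 to 2.88, limma adjusted p = 4.39e-05). As the probe set was picked for its values, this p-value is a description and not independent evidence. The CLOCK genes and the other BMAL genes were not analysed here.

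**Figure D3:**
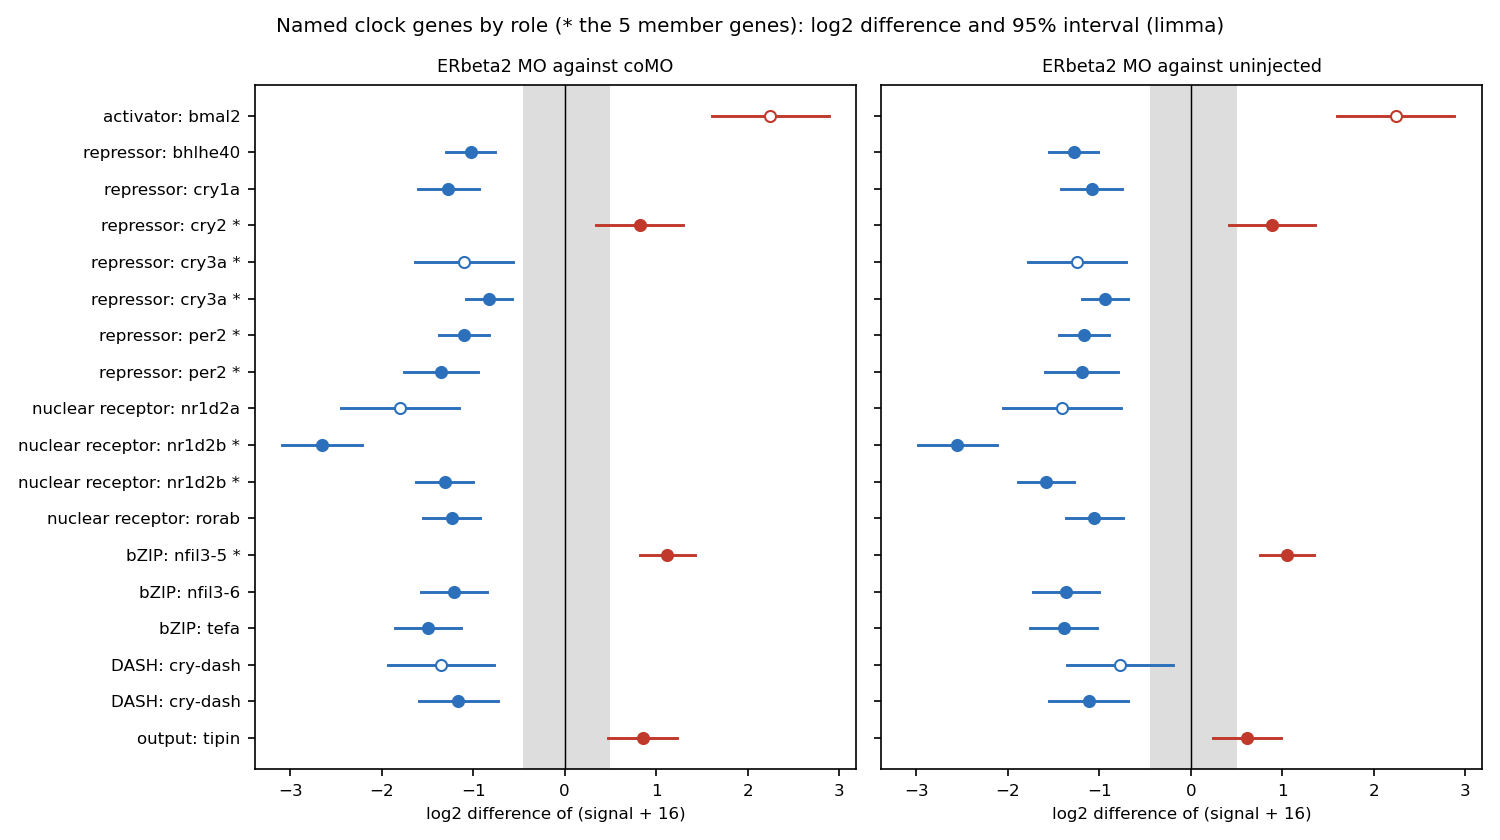
Log2 difference of (signal + 16) with its 95% interval from limma for the 18 named clock probe sets ordered by role, against coMO (left) and uninjected embryos (right); stars mark the 5 member genes, open points the probe sets below the filter, and the grey band spans the middle 50% of all probe sets tested. bmal2, cry2, nfil3-5 and tipin lie to the right of 0 and all other named clock probe sets to the left. Roles follow the gene family and were not tested for each gene.

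The size of the falls depended on how arrays were scaled. Spike RNAs, which are added from outside, were dimmer on the ERbeta2 MO arrays, where the poly-A spikes averaged 6.74 ± 0.191 on the log2(signal + 16) scale, against 7.68 ± 0.224 for coMO and 7.38 ± 0.210 for uninjected embryos (SD, n = 2 each). Scaling on these spikes moved the median of all probe sets to 0.95 against coMO and 0.66 against uninjected embryos. The rises then grew, to 2.05 for nfil3-5 and 1.67 for cry2 against coMO. Of the falls against coMO only that of nr1d2b Dr.15260.1.S1_at still passed (log2 -1.83, limma adjusted p = 4.97e-09). cry3a Dr.2518.1.A1_at turned to 0.11 and did not pass (limma adjusted p = 0.703). Against uninjected embryos 2 falls still passed, both of nr1d2b. Measured from that shifted median, the log2 differences from coMO were -1.13 for per2 Dr.6754.1.A1_at, -0.84 for cry3a Dr.2518.1.A1_at, -2.77 for nr1d2b Dr.15260.1.S1_at and 1.1 for nfil3-5. With the hybridization controls the median moved to 0.48 against coMO. The falls from coMO then shrank and the rises grew. per2 Dr.6754.1.A1_at stood at -0.66, and cry3a Dr.2518.1.A1_at passed only narrowly (log2 -0.37, limma adjusted p = 0.0429). Scaling on the hybridization controls, quantile normalization and median centring ended no call of the 7 probe sets. On the wider list, the 11 falls counted with the members became 2 against coMO and 5 against uninjected embryos with the poly-A spikes. Over all 9302 probe sets the lower calls went from 2491 to 424 against coMO and from 2468 to 627 against uninjected embryos, and the higher calls from 2740 to 6397 and from 2827 to 4939.

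**Figure D4:**
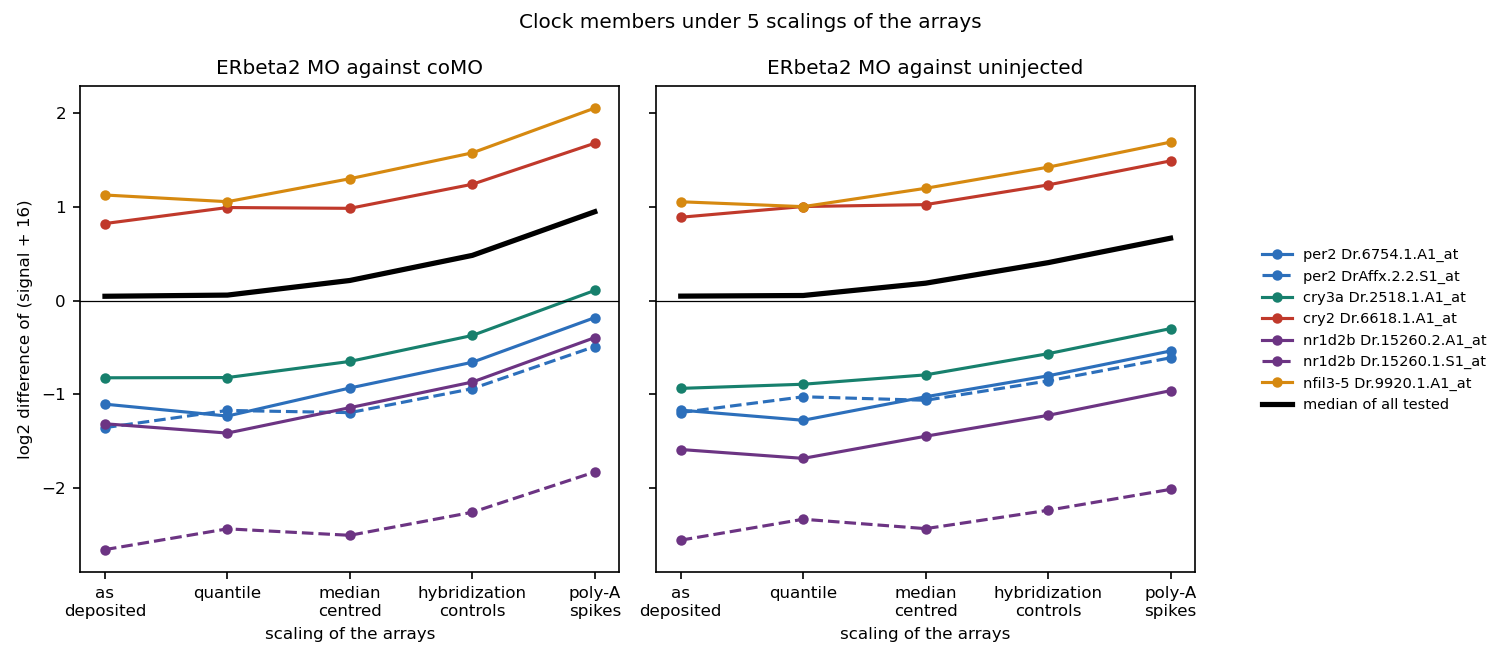
Log2 difference of (signal + 16) of the 7 tested clock probe sets (coloured lines) and the median of all 9302 probe sets tested (black line) under the deposited scaling and 4 others, against coMO (left) and uninjected embryos (right). From median centring to the poly-A spikes, members and median move up together, while at the earlier steps some members move down. nr1d2b Dr.15260.1.S1_at stays lowest throughout, and cry3a crosses 0 at the last scaling in the left panel.

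Other measures moved with these differences in the same arrays. Their median signals were 198 and 203 in ERbeta2 MO, 228 and 224 in coMO and 222 and 221 in uninjected embryos. On the log2 scale, arrays of a group correlated at 0.975 to 0.987 over probe sets, coMO with uninjected arrays at 0.971 to 0.979 and ERbeta2 MO arrays with control arrays at 0.900 to 0.908. The 3' to 5' signal ratio of GAPDH, a sign of RNA integrity and labelling, went from 1.41 ± 0.0877 (uninjected) and 1.5 ± 0.233 (coMO) to 2.15 ± 0.00652 (ERbeta2 MO; SD, n = 2 each). The same ratio of acta1 was higher on every array. It was 13.6 and 11.6 in ERbeta2 MO, 7.64 and 5.72 in coMO and 5.41 and 10.04 in uninjected embryos, whose 2 arrays thus differed widely. Cell type markers, too, could be named only where a deposited table lists a probe set, so unchanged markers could not appear. The shares called among listed probe sets are those given above. All 11 probe sets of the 9 named photoreceptor markers (of 11 on the list) were lower in ERbeta2 MO. Their summed signal was 654 to 688 there, 75191 to 83871 in coMO and 86322 to 97705 in uninjected embryos, and the opsins rho and opn1mw1 were at 170.2 ± 6.59 and 29.4 ± 12.1 (SD, n = 2 each). Of the liver list 4 of 5 genes were named, with summed signals of 8046 to 8139 in ERbeta2 MO and 30078 to 34293 over the control arrays, and fabp10a fell to 16.7 ± 6.63 (SD, n = 2), while cp rose against both controls (log2 1.20 and 1.08, limma adjusted p = 1.62e-06 and 6e-06). The 5 named red blood cell genes of 6 summed to 41673 to 42613 in ERbeta2 MO and 17277 to 20695 over the controls, with hbbe3 at 14.7 ± 0.326 (SD, n = 2) in uninjected embryos. The 5 neuronal genes, all named, summed to 9550 to 10010 in ERbeta2 MO and 19240 to 21154 over the controls, where elavl3 was higher in ERbeta2 MO and the rest lower. Pineal and skeletal muscle markers, 6 genes each, had 0 named, so their levels were not read. The part of any of these in the clock results was not tested.

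The named probe sets closest in pattern to each member were found by the root mean square difference of centred log2 values over the 6 arrays, among 1863 candidates. They were sdha and ckmt1 for per2 (0.05 each) and LOC567127 and ambp for cry3a (0.04 and 0.05). For nr1d2b, on its brighter probe set, they were tpm1 and wu:fb77h10 (0.09 each), for nfil3-5 exosc7 and lsg1 (0.05 each) and for cry2 LOC559749 and nrarpa (0.06 and 0.09). All candidates stand in a deposited table of differences, and no shared function or control is read from closeness.

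The folds of the authors' deposited tables ran the same way. The tables rest on the same arrays and name the members, so the shared direction is not independent evidence. In the authors' deposited table of ERbeta2 MO over coMO, nr1d2b stood at 0.133 and 0.361, per2 at 0.39 and 0.397, cry3a at 0.345 on its dim probe set, cry2 at 2.164 and nfil3-5 at 2.187. In the authors' deposited table of ERbeta2 MO over uninjected embryos, nr1d2b stood at 0.111 and 0.33, per2 at 0.38 and 0.469, cry3a at 0.332 and 0.471, cry2 at 2.706 and nfil3-5 at 2.118. cry3a Dr.2518.1.A1_at is listed in the latter table and not in the former; its mean signal computed here was 0.563 of that in coMO. The authors' deposited fold for cry2 exceeds the ratio of mean signals computed here, 1.81 against coMO and 1.96 against uninjected embryos. Folds of other members differed too, in both directions. For per2 Dr.6754.1.A1_at against coMO the authors' deposited fold was 0.39 and the ratio here 0.461. On per2 DrAffx.2.2.S1_at they were 0.397 and 0.360, and on nr1d2b Dr.15260.1.S1_at 0.133 and 0.132. The sources used here do not say how the authors computed their folds. The authors' deposited table of uninjected over coMO, with 21 probe sets, lists no member.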

How the data were processed

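Total RNA of whole zebrafish embryos was hybridized to 6 Affymetrix arrays. The value table deposited by the authors holds probe set intensities on a linear scale, with MAS5 as the algorithm per the submitters' processing notes; the sources used here give no settings. Gene names came from 3 tables of fold changes between groups (linear ratios, per the file headers) that the authors deposited. Symbols were updated by gene identifier through the GRCz12tu gene table of RefSeq, which gave all 8 member probe sets. Columns of values with no sample numbered 0. For the tests, log2(signal + 16) was analysed with lmFit and eBayes of limma 3.58.1 (R 4.3.3), with a mean-variance trend and all 6 arrays in 1 model, which leaves 3 residual degrees of freedom; eBayes also borrows spread from all probe sets. Control probe sets (115) were left out, as were those in the lowest 40% by mean, and p-values were adjusted by Benjamini-Hochberg over the remaining 9302. A probe set below that filter got its value from a fit with no filter. Genes named are all members, the wider clock list past the filter and, per member, the 2 closest named genes; markers and stated exceptions come beside them. A further clock gene is not reported here. Members and lists were chosen with earlier results of these data known. The procedure was tested on simulated data. Over the 3 comparisons it recovered 22.4 to 28.4% of planted 1.5-fold changes, 62.7 to 68.7% of 2-fold and 93.9 to 98.5% of 4-fold changes. Each comparison had 66 or 67 planted changes of each size among 9302 probe sets. With so few changes the adjusted threshold is stricter than where 56.2% or 56.9% of probe sets pass. The rates therefore do not carry over to the ERbeta2 MO comparisons. Where few probe sets change, many changes below 2-fold would be missed. Precision is limited by the number of arrays. Alternatives varied the offset, filter, scaling, prior, arrays fitted and replicate block, and left out each array.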

Additional observations from a re-analysis of the deposited data

How the results depend on the processing

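Across 17 alternative fits at most per probe set, members gave 116 values against coMO, of which 110 kept direction and call, 5 kept direction only and 1 turned: with the poly-A spikes cry3a Dr.2518.1.A1_at stood at 0.11. Against uninjected embryos 112 of 116 kept both and 4 only the direction. Fits that changed the filter, prior, groups fitted or replicate block, or left out an array of the third group, kept the log2 value by design. Only their calls could change, so the kept directions there are no evidence. nfil3-5 passed in all 17 fits and nr1d2b Dr.15260.1.S1_at in all 16 it entered, in both comparisons. With the poly-A spikes the lower members numbered 1 against coMO and 2 against uninjected embryos (5 in both as deposited), and on the wider clock list 2 and 5 (11 in both as deposited), while lower calls over all probe sets went from 2491 to 424 and from 2468 to 627. With the lowest 60% left out, which removes dim probe sets from testing, 1 member was higher and 3 lower in both comparisons, and 1 and 7 on the wider list. Leaving out single arrays gave 1 to 2 higher members (2 to 3 on the wider list) against either control, by cry2 and, on the wider list, tipin, while the lower counts stayed at 5 and 11. Between coMO and uninjected embryos 0 of 116 member values passed, and 9 changed sign around 0. There the 47 calls over all probe sets became 21 with no filter, 16 with the hybridization controls, 13 with the poly-A spikes, 11 without the trend, 92 with the replicate block and 10 to 41 without single arrays. Nothing in the labels ties same-numbered arrays together; their deviations correlated at 0.01 to 0.12, and the replicate block changed no member's call. Members near the offset of 16, such as nr1d2b Dr.15260.1.S1_at, have sizes that depend on it, -2.91 with an offset of 1 and -2.11 with 64 against coMO. The cause of changes under the spike scalings was not tested.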
